A study of Arabidopsis thaliana with 12 samples.

Results

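The 10 genes described here are 8 of the 15 MLO genes of Arabidopsis thaliana and a pair of plasma membrane syntaxins. The MLO genes are MLO1 (AT4G02600), MLO2 (AT1G11310), MLO3 (AT3G45290), MLO4 (AT1G11000), MLO6 (AT1G61560), MLO11 (AT5G53760), MLO12 (AT2G39200) and MLO15 (AT2G44110). The syntaxins are PEN1 (AT3G11820, also named SYP121) and SYP122 (AT3G52400). They were picked by gene identifier, with earlier results of these data known, out of 33197 identifiers listed once in the deposited table. All 10 were among the 20753 genes kept for testing. MLO proteins sit in the plasma membrane, which they cross several times, and bind calmodulin at their C-terminal end. Loss of MLO2, MLO6 and MLO12 together makes Arabidopsis resistant to powdery mildew fungi, with MLO2 carrying most of that role, and the first mlo mutants were found in barley. Syntaxins are SNARE proteins that let vesicles fuse with a membrane: PEN1 pairs with SNAP33 and VAMP721 or VAMP722 to deliver cargo to the site where a fungus tries to enter, and SYP122 is its closest relative, with a partly shared function.

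Transcripts were measured by RNA sequencing in whole Col-0 seedlings, 10 days old. Besides the wild type, called WT, there were the asr3-1 mutant and a single transgenic line, OX9, in which the 35S promoter, active in most plant cells, drives HA-tagged ASR3, a trihelix transcription factor. Seedlings stood overnight in water and were then left without flg22 or given it for 30 min; flg22 is a piece of bacterial flagellin perceived by the receptor kinase FLS2. Its dose is 100 nM in the design text but 100 mM in the treatment protocol. Each of the 6 groups has 2 libraries, from repeat 1 and repeat 2 of the experiment, and every library pools 2 biological replicates, so errors given here describe pools and not single cultures. In whole seedlings, fewer cells of a type and less RNA per cell cannot be told apart.

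Values are FPKM, in which fragments are divided by the length of the transcript and the size of the library, which allows levels of different genes to be compared per length. Read numbers are not given, so the depth is unknown, and 19137 to 19621 genes reached 1 FPKM in a library. The level of ASR3 was 384 to 590 FPKM in the OX9 libraries, 6.24 to 9.59 in those of WT and 2.50 to 6.58 in those labelled asr3-1, lower in asr3-1 than in WT in all 4 pairs of the same repeat and treatment, although the highest asr3-1 library exceeded the lowest of WT in the other repeat. Of the markers checked against the label of whole seedlings, all 6 green tissue genes and all 6 root genes were kept for testing, while none of the 4 pollen genes was. The summed green tissue markers ran from 41853 to 45420 FPKM without flg22 and 36412 to 40755 with it in repeat 1, and from 34246 to 37156 and 29735 to 36565 in repeat 2. The summed root markers ran from 1642 to 1887 FPKM without flg22 and 1344 to 1437 with it in repeat 1, and from 758 to 1308 and 1207 to 1522 in repeat 2. Most of the root sum was PYK10, at 706 to 1807 FPKM, while no other root gene exceeded 47.3. The root genes also moved in different directions: in repeat 2 PYK10 was 1.16 to 1.62 times its untreated level and COBL9 0.565 to 0.785 times. No marker of either list passed the test of the flg22 response over the 3 genotypes, against 3.83% of all genes higher and 0.265% lower. With the repeat as a block 2 of 6 green tissue genes were lower, against 5.69% of all genes. The part of tissue makeup in the results was not tested. The repeats differed widely: a metallothionein gene, MT1A, made up 1.46 to 1.78% of the FPKM sum in repeat 1 and 10.2 to 16.1% in repeat 2. With each library scaled to its sum without MT1A, the count of members past the test was the same in each comparison.

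The 250 bases before the annotated gene start are shown for the 5 members with the largest fitted responses to flg22 and, for contrast, for MLO11, whose fitted difference was near 0. Capitals mark TTGAC or its reverse complement GTCAA, the core of the W-box bound by WRKY factors. The sequences are from TAIR10.1 and are written 5′ to 3′ on the strand of the gene.
MLO2, chr1:3804234-3804483, minus strand: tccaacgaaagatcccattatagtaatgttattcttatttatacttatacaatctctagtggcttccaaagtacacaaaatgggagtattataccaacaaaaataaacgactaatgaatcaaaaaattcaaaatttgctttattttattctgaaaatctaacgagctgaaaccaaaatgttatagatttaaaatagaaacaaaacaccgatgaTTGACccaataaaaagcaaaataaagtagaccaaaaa
MLO6, chr1:22712290-22712539, minus strand: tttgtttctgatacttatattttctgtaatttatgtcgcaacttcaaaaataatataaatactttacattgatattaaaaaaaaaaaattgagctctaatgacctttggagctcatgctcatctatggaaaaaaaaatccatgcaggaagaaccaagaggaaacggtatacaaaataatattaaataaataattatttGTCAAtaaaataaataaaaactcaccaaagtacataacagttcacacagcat
MLO12, chr2:16359944-16360193, minus strand: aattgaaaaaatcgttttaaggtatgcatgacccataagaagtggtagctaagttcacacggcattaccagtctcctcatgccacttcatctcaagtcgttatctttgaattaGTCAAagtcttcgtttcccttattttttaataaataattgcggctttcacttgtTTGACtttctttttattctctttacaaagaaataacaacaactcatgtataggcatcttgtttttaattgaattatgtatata
PEN1, chr3:3731252-3731501, minus strand: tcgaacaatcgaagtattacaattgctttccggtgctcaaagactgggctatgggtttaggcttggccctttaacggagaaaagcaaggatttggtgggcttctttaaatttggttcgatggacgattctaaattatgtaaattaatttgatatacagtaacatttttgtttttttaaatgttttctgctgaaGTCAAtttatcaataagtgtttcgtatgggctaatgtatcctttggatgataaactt
SYP122, chr3:19427231-19427480, minus strand: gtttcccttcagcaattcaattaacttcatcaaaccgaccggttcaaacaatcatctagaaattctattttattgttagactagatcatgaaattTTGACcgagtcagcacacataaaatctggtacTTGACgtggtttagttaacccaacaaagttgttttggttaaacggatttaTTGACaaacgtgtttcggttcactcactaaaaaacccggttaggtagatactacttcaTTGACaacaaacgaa
MLO11, chr5:21822073-21822322, plus strand: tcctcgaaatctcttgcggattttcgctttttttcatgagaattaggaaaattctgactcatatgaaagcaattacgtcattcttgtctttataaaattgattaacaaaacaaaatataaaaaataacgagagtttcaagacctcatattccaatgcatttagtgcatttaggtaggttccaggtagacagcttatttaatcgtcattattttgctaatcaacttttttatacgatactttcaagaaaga
The core occurred 4 times before SYP122, 2 times before MLO12 and 1 time each before MLO2, MLO6 and PEN1. It also occurred 1 time before MLO3, and was not found in the windows of MLO1, MLO4, MLO11 and MLO15. Of 27437 gene windows of the same length, 44.9% held the core on either strand, 14.1% at least 2 copies and 0.722% at least 4. The GT box GGTTAA (reverse complement TTAACC), searched because trihelix factors bind GT elements, occurred 2 times before SYP122 and in no other member, without overlapping a W-box core. At least 1 GT box stood in 14.6% of windows and at least 2 in 1.75%. The G-box CACGTG was not found before any member and stood in 6.49% of windows. A match describes letters in this window and not a site that is bound.

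MLO2, MLO6 and MLO12 form the clade tied to powdery mildew susceptibility, and their summed level went from 73.2 to 95.9 FPKM without flg22 to 207 to 919 FPKM with it. MLO2 was the most abundant MLO gene in every library without flg22. Its level there was 50.9 and 54.9 FPKM in WT (repeat 1, then repeat 2, as in all pairs of values below), 56.1 and 53.5 in asr3-1 and 62.4 and 50.2 in OX9. With flg22 its level was 126 and 374 FPKM in WT, 123 and 481 in asr3-1 and 104 and 339 in OX9. All 6 treated libraries lay above all 6 untreated ones, and among treated libraries those of repeat 2 were the highest. Over the 3 genotypes the fitted difference of MLO2 was 1.96 on the log2(FPKM + 1) scale (SE 0.44), just short of the threshold (limma adjusted p = 0.0503).

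MLO6, a close relative of MLO2, stood at 13.8 and 20.2 FPKM in WT, 10.6 and 21.2 in asr3-1 and 14.5 and 15.7 in OX9 without flg22. With flg22 its level was 31.2 and 141 FPKM in WT, 35.3 and 186 in asr3-1 and 29.0 and 96.7 in OX9. The groups did not overlap, and the treated libraries of repeat 1 sat between the untreated libraries and the treated ones of repeat 2. The fitted log2 difference over the genotypes was 2.02 (SE 0.55) and did not pass (adjusted p = 0.0932).

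MLO12 rose in the test over the 3 genotypes. Its level without flg22 was 8.42 and 12.2 FPKM in WT, 14.9 and 17.2 in asr3-1 and 19.0 and 18.6 in OX9. With flg22 it was 80.4 and 198 FPKM in WT, 189 and 252 in asr3-1 and 73.8 and 99.0 in OX9. The groups were far apart, with the lowest treated library in OX9 repeat 1 and the highest untreated one in the same line and repeat. The log2 difference over the genotypes was 3.11 (SE 0.23, adjusted p = 0.00103), and the adjusted p stayed between 0.000594 and 0.00759 when any library was left out.

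**Figure D1:**
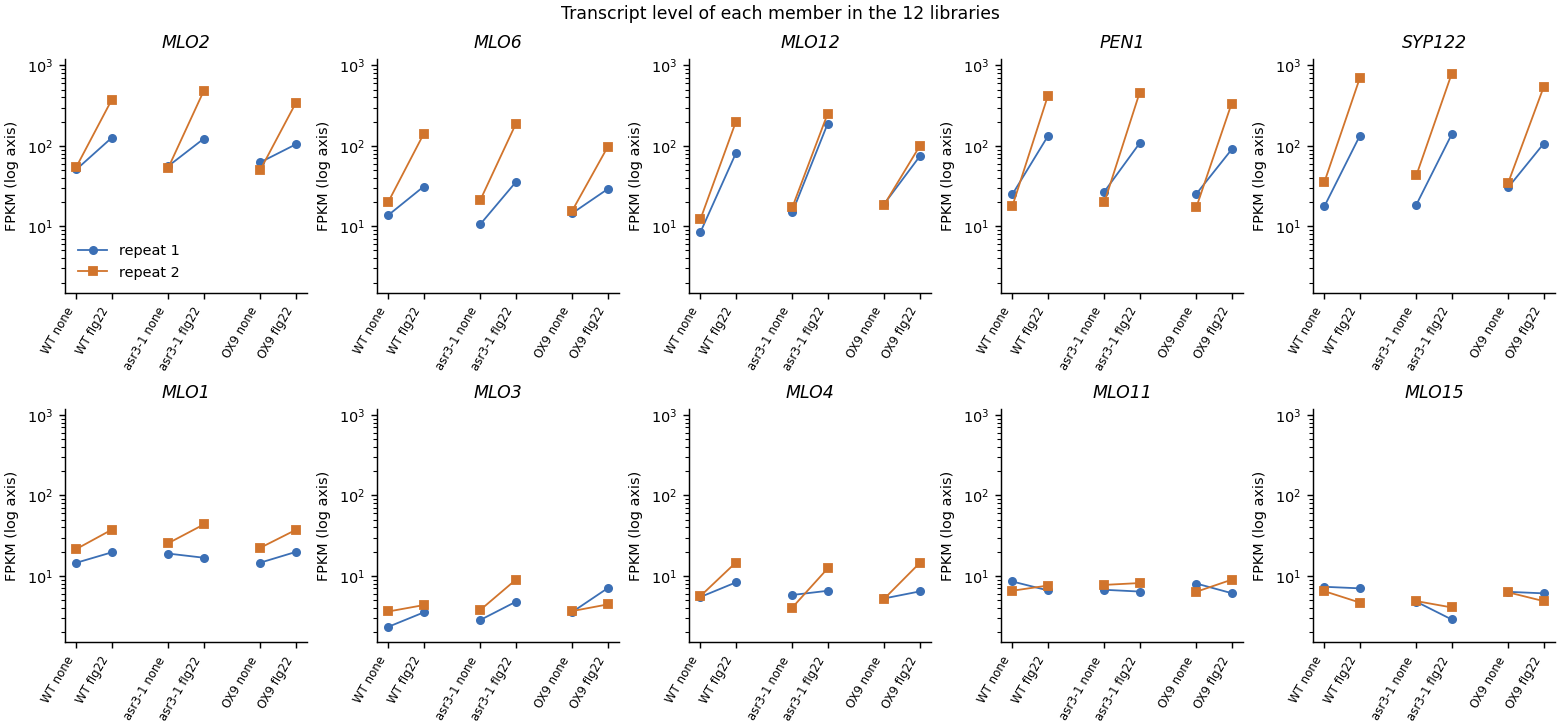
Levels of the 10 members in FPKM on a log axis, a panel per gene, with each point a library and lines joining the untreated and treated library of a genotype and repeat. In MLO2, MLO4, MLO6, MLO12, PEN1 and SYP122 the 6 libraries with flg22 lie above the 6 without it; in MLO1, MLO3, MLO11 and MLO15 they overlap.

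Both syntaxins rose in the test over the 3 genotypes. PEN1 stood at 25.0 and 17.8 FPKM in WT, 26.9 and 19.8 in asr3-1 and 25.2 and 17.1 in OX9 without flg22. With flg22 its level was 131 and 415 FPKM in WT, 108 and 461 in asr3-1 and 90.2 and 336 in OX9. Untreated PEN1 was higher in repeat 1 in every genotype and treated PEN1 was higher in repeat 2, with no overlap between treatments. The log2 difference over the genotypes was 3.21 (SE 0.49, adjusted p = 0.0129). The call was lost without the untreated repeat 2 library of WT, asr3-1 or OX9, where the adjusted p was 0.0501, 0.0512 and 0.0536.

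SYP122 stood at 17.7 and 35.4 FPKM in WT, 18.5 and 42.9 in asr3-1 and 30.5 and 34.9 in OX9 without flg22. With flg22 its level was 133 and 693 FPKM in WT, 139 and 788 in asr3-1 and 106 and 538 in OX9, which made it the most abundant member in each treated library of repeat 2. The groups did not overlap. The log2 difference over the genotypes was 3.30 (SE 0.64, adjusted p = 0.0294), and the call depended on single libraries: it held in 3 of the 12 fits that each left out a library, those without the treated repeat 1 library of WT, asr3-1 or OX9. Without any other library the adjusted p was 0.0643 to 0.0924.

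Among the other MLO members, MLO4, which acts in root growth responses to touch together with MLO11, stood at 4.04 to 5.78 FPKM without flg22 and 6.41 to 14.6 FPKM with it. Its groups did not overlap, and its log2 difference of 0.81 (SE 0.24) did not pass (adjusted p = 0.129). MLO11 ran from 6.34 to 8.51 FPKM without flg22 and from 6.10 to 8.96 with it, with a fitted log2 difference of -0.01. MLO1 ranged from 14.6 to 25.5 FPKM untreated and 16.8 to 43.5 treated, with a log2 difference of 0.48 (SE 0.30, adjusted p = 0.583).

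MLO3 ranged from 2.33 to 3.77 FPKM untreated and 3.52 to 8.93 treated, with a log2 difference of 0.56 (SE 0.19, adjusted p = 0.18). MLO15 ranged from 4.77 to 7.32 FPKM untreated and 2.87 to 7.00 treated, with a log2 difference of -0.27 (SE 0.13, adjusted p = 0.431). Its level was lower with flg22 in all 6 pairs. The log2 differences of the pairs were -0.577 to -0.0544 in repeat 1 and -0.396 to -0.213 in repeat 2. The share of all genes lower in all 6 pairs was not counted. These 4 genes, MLO1, MLO3, MLO11 and MLO15, overlapped between treatments.

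Over the 3 genotypes 3 of 10 members, MLO12, PEN1 and SYP122, passed the test as higher, against 3.83% of all genes tested, and none as lower, against 0.265%. In 6 of 10 members the treated libraries all lay above the untreated ones, which held for 6.19% of genes. The repeat numbers pair the libraries, and with the repeat as a block 7 of 10 members passed as higher, against 10.1% of genes: MLO1 (adjusted p = 0.0349), MLO2 (0.013), MLO4 (0.0371), MLO6 (0.0088), MLO12 (0.00033), PEN1 (0.00602) and SYP122 (0.00276). With a block for the repeat within each treatment, which sets the unequal response of the repeats aside from its error, MLO3 passed as well (adjusted p = 0.0433), 8 of 10 members against 13.9% of genes. These fits count the 3 genotype pairs of a repeat as separate observations. Pairs of the same repeat can share its size of response, so the adjusted p values can be too small. The median log2 difference of the 10 members was 1.39, against -0.0282 over all genes. The members were chosen with earlier results of these data known, so these counts and this median only describe the chosen genes. Other scalings moved the median of all genes to -0.133 (quantile) and -0.119 (sums without MT1A).

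Within each genotype, with 2 libraries against 2, MLO12 was the member that passed. Its log2 response was 3.51 (SE 0.40, adjusted p = 0.0393) in WT, where 1 of 10 members passed against 0.101% of all genes. It was 3.69 (adjusted p = 0.0203) in asr3-1, where 1 of 10 passed against 0.193%. The WT call was lost in the fits without either untreated WT library (adjusted p = 0.369 and 0.299) or the treated repeat 2 library (0.108), and that of asr3-1 in the fits without any of its 4 libraries (0.0926 to 0.238). In OX9 no member passed, and limma called 0 genes in all; 3 members and 949 genes (4.57%) had an unadjusted p under 0.05, and the log2 response of MLO12 was 2.13 (adjusted p = 0.386). With the repeat as a block SYP122 also passed in asr3-1 (log2 response 3.50, adjusted p = 0.042), 2 of 10 members against 1.59% of genes, while 1 of 10 passed in WT, against 0.520%, and 0 in OX9, against 0.0482%. With the block within each treatment 7 of 10 passed in WT (9.00% of genes), 6 in asr3-1 (9.69%) and 7 in OX9 (7.08%).

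**Figure D2:**
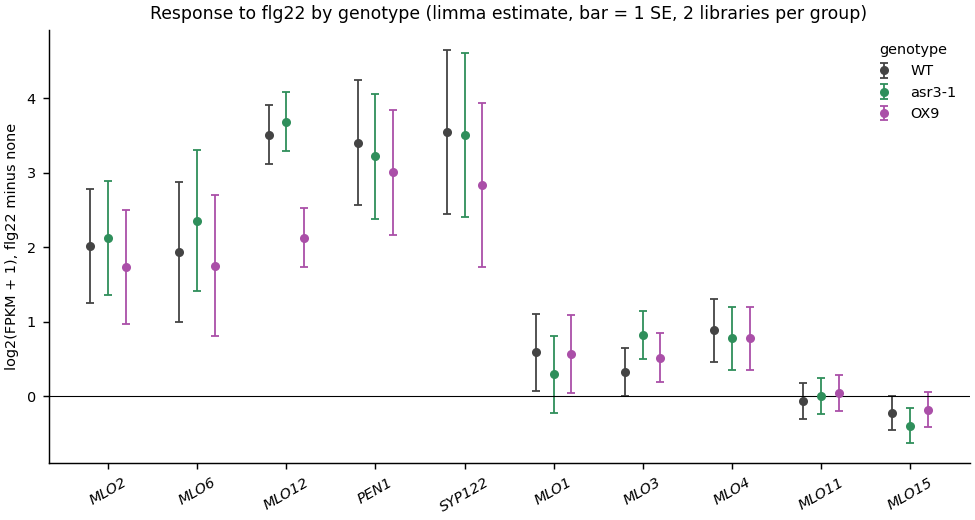
Fitted log2(FPKM + 1) difference between flg22 and none for each member in WT, asr3-1 and OX9; points are limma estimates from 2 libraries a group and bars are 1 SE. MLO12 has the shortest bars among the 5 genes with large responses and its OX9 estimate, 2.13, is below those of WT, 3.51, and asr3-1, 3.69.

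The size of the response depended on the repeat for most of the induced members. PEN1 was 3.58 to 5.27 times its untreated level in the 3 pairs of repeat 1 and 19.6 to 23.3 times in those of repeat 2. MLO2 was 1.67 to 2.48 times its untreated level in repeat 1 and 6.75 to 8.99 times in repeat 2. SYP122 was 3.49 to 7.52 times its untreated level in repeat 1 and 15.4 to 19.6 times in repeat 2. For these genes the ranges of the repeats did not overlap.

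MLO6 was 2.00 to 3.33 times its untreated level in repeat 1 and 6.18 to 8.77 times in repeat 2. In MLO12 the ranges of 3.89 to 12.7 times in repeat 1 and 5.32 to 16.2 times in repeat 2 overlapped, although repeat 2 gave the larger response in each genotype. The difference of response between repeats passed the test for 5 of 10 members, all larger in repeat 2, where 8.13% of all genes passed as larger and 3.13% as smaller. On the log2 scale it was 2.35 for PEN1 (SE 0.15, adjusted p = 4.69e-05), 1.83 for MLO2 (0.000122), 1.62 for SYP122 (0.00894), 1.55 for MLO6 (0.00589) and 1.02 for MLO4 (0.00245). For MLO12 it was 0.49 (SE 0.56, adjusted p = 0.691), and whether it differs from the others was not tested. This test takes its error from the spread among the 3 genotypes within each repeat and treatment. Its p values do not measure the spread between repeats of the experiment. MLO11 was 0.759 to 0.950 times its untreated level in repeat 1 and 1.05 to 1.41 times in repeat 2.

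Untreated levels also differed between repeats for 3 of 10 members, where 23.1% of all genes were higher and 21.4% lower in repeat 2. SYP122 was higher in repeat 2 by 0.77 on the log2 scale (adjusted p = 0.0181) and MLO1 by 0.51 (0.00431), whereas for PEN1 repeat 2 minus repeat 1 was -0.47 (0.00582). The error here is also the spread among genotypes within each repeat and treatment.

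**Figure D3:**
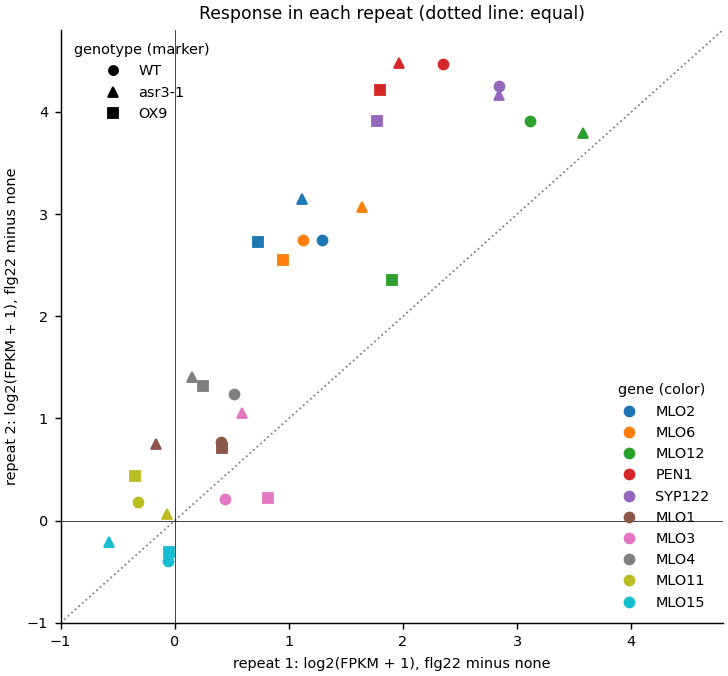
Log2(FPKM + 1) difference between flg22 and none within repeat 1 (horizontal axis) and repeat 2 (vertical axis), with colours for members, marker shapes for genotypes and a dotted line where both repeats are equal. PEN1, MLO2, SYP122, MLO6 and MLO4 lie well above the line, and MLO12 lies nearer to it, with a fitted difference of 0.49.

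Ratios within a library take out its scaling. SYP122 had 0.688 to 1.21 times the FPKM of PEN1 in untreated libraries of repeat 1 and 1.99 to 2.17 times in those of repeat 2. With flg22 the ratio was 1.01 to 1.29 in repeat 1 and 1.60 to 1.71 in repeat 2, so the untreated repeats were further apart than the treated ones. It was lower with flg22 in all 3 pairs of repeat 2, while in repeat 1 it was higher in WT and asr3-1 and near level in OX9, at 1.21 and 1.18.

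SNAP33, the partner SNARE of PEN1, had 1.49 to 3.43 times the FPKM of PEN1 without flg22 and 0.765 to 1.13 times with it, lower in all 6 pairs. Within the clade of MLO2, MLO6 and MLO12, MLO12 held 11.5 to 22.0% of the summed FPKM without flg22 and 18.5 to 54.5% with it. Its share was higher with flg22 in 5 of 6 pairs, the exception being OX9 in repeat 2, at 22.0% without and 18.5% with flg22. The clade as a whole held 49.3 to 58.2% of the FPKM of all 15 MLO genes without flg22 and 73.4 to 83.7% with it. These ratios are descriptions without a test.

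**Figure D4:**
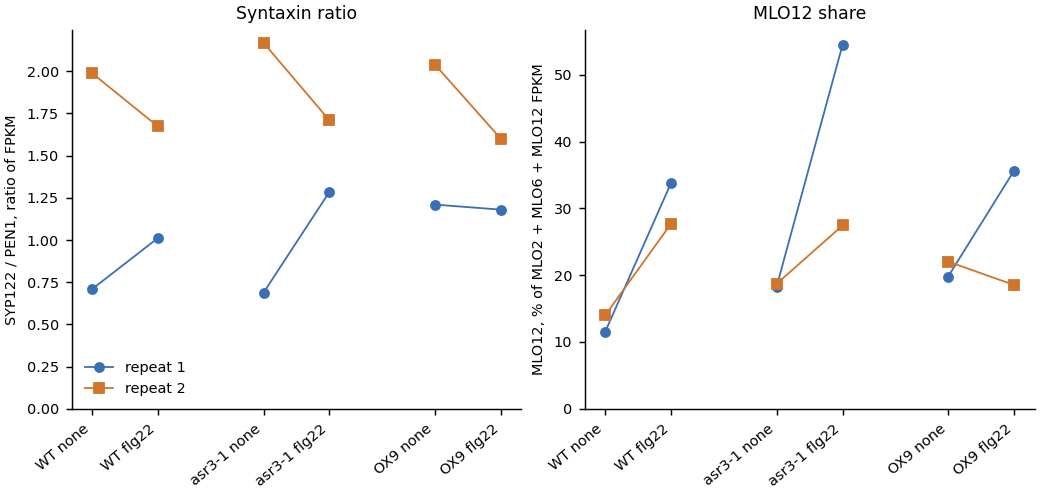
Left, the ratio of SYP122 to PEN1 FPKM in each library; right, the share of MLO12 in the summed FPKM of MLO2, MLO6 and MLO12, in percent; lines join the untreated and treated library of a repeat. The ratio of repeat 2 stays above that of repeat 1 in every group, and the highest MLO12 share, 54.5%, is treated asr3-1 in repeat 1.

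No member passed the test between a line and WT, with or without flg22, in limma or in either fit with the repeat as a block. Among all genes limma called 0 (asr3-1) and 0.00964% (OX9, higher) without flg22, and 0 and 0.00482% with it. Without flg22, 0 members had an unadjusted limma p under 0.05 in asr3-1 (0.390% of genes) and 0 in OX9 (0.834%). With flg22 there was 1 member in asr3-1 (0.800% of genes), MLO15 with a log2 difference of -0.61 and an unadjusted limma p of 0.0307, and 0 in OX9 (0.790%). These comparisons share their WT libraries.

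MLO12 was the member with the largest fitted difference between a line and WT in untreated seedlings, where each line was above WT in both repeats. Over all genes, 31.2% were above WT in both repeats without flg22 in asr3-1 and 28.1% in OX9. The log2 difference of MLO12 from WT was 0.61 in asr3-1 (95% interval -0.30 to 1.52) and 0.83 in OX9 (-0.08 to 1.74). With flg22 it was 0.79 in asr3-1 (-0.12 to 1.70) and -0.56 in OX9 (-1.47 to 0.35), and each interval includes 0. The log2 response of MLO12 to flg22 was smaller in OX9 than in WT, with a difference of -1.38 (SE 0.56, 95% interval -2.67 to -0.10) that did not pass (unadjusted p = 0.038, limma adjusted p = 1). It was the 1 of 10 members at an unadjusted limma p under 0.05 for that difference (0.458% of genes), and for asr3-1 there were 0 of 10 (0.385%).

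For PEN1 the response differed from that of WT by -0.19 in asr3-1 (95% interval -2.93 to 2.55) and -0.40 in OX9 (-3.14 to 2.34), intervals wide enough to hold differences of several fold. With flg22 the OX9 level was below WT in both repeats for 6 of 10 members, against 29.3% of all genes. It was so for all 5 members with a mean log2 response of at least 1 (MLO2, MLO6, MLO12, PEN1 and SYP122), and 68.5% of the 1187 genes with such a response did the same. The asr3-1 level was above WT in both repeats for 4 of 10 members, against 27.3% of all genes, and for 3 of the 5 with such a response, against 50% of the 1187 genes. These orders were counted on the deposited FPKM. In treated repeat 2, MT1A held 15.8% of the FPKM sum in WT and 10.2% in OX9. With sums without MT1A the median log2 difference of all genes, OX9 against WT with flg22, moved from -0.0189 to 0.0812. For MLO2 the OX9 difference from WT in treated repeat 2 was -0.145. Whether its order holds under that scaling was not tested.

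The counts for the lists below stand beside 3.83% of all genes higher and 0.265% lower over the 3 genotypes and, with the repeat as a block, 10.1% higher and 5.69% lower. At an unadjusted limma p under 0.05 over the 3 genotypes there were 3150 of 20753 genes. Of the other 7 MLO genes, 4 were kept for testing and 0 passed in limma over the 3 genotypes, with a median log2 difference of 0.108; 1 had an unadjusted p under 0.05. That gene was MLO8, with a log2 difference of 1.31 (adjusted p = 0.309). Its level was 11.0 to 13.3 FPKM without flg22, and with it 10.5 to 16.6 FPKM in repeat 1 and 59.5 to 76.9 FPKM in repeat 2. Its difference of response between repeats was 2.06 on the log2 scale (adjusted p = 0.000138). MLO7, known for its part in the reception of the pollen tube in the ovule, had a log2 difference of -0.29, MLO13 of 0.21 and MLO10 of 0.00. MLO5, a pollen gene, is listed at 0 in all 12 libraries.

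Of 7 other plasma membrane syntaxins, 4 were kept and 0 passed in limma, with a median log2 difference of -0.151. Of these, 1 had an unadjusted limma p under 0.05, against 3150 of all 20753 genes. Their log2 differences were -0.56 for SYP112 (adjusted p = 0.276), -0.30 for the root hair syntaxin SYP123, 0.06 for the cytokinesis syntaxin SYP111 (KNOLLE) and 0.00 for SYP132, a syntaxin of constitutive secretion.

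Among 15 partners in secretion, 13 were kept and 3 passed as higher, with a median log2 difference of 0.654. These were the exocyst subunits EXO70B2 (log2 difference 2.86, adjusted p = 0.0129), EXO70B1 (2.19, 0.0348) and EXO70H1 (1.78, 0.00894), which help tether vesicles to the membrane. SNAP33 stood at 2.08 and did not pass (adjusted p = 0.0562). With the repeat as a block 7 passed as higher, which adds SNAP33 (adjusted p = 0.00947), the vesicle SNARE VAMP722 (log2 difference 0.65, 0.00595) and the SM proteins KEU (0.74, 0.0468) and SEC1B (1.42, 0.0103), and 2 as lower, VAMP724 (-0.34, 0.0196) and SEC1A (-0.39, 0.0382).

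All 10 other genes of penetration resistance and powdery mildew response were kept, and 3 passed as higher, with a median log2 difference of 0.35. PCS1, a phytochelatin synthase named PEN4 in work on penetration, had a log2 difference of 3.44 (adjusted p = 0.0187). PEN2, the myrosinase that releases antifungal products of indole glucosinolates, had 2.35 (0.0353), and AT5G05190 had 2.26 (0.015). PEN3, an ABC transporter that acts with PEN2, stood at 2.46 and did not pass without the block (adjusted p = 0.0712), but passed with it (0.00569), as did the callose synthase GSL5 (log2 difference 0.43, adjusted p = 0.0166).

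The 7 calmodulins, which MLO proteins bind, were all kept, with a median log2 difference of 0.166; 2 passed as higher. CAM2 had a log2 difference of 1.32 (adjusted p = 0.018) and CAM3 of 0.87 (0.0124), against 0.23 for CAM1 and 0.17 for CAM4. Calmodulin genes are close relatives of each other. Sequence shared among their transcripts was not measured here, so how surely reads are split among them is unknown.

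The difference of response between repeats passed the test, larger in repeat 2, for MLO8, for 5 secretion partners (SNAP33 at 1.74, KEU at 1.01, SEC1B at 1.23, EXO70B1 at 1.84 and EXO70B2 at 1.63 on the log2 scale), for 4 penetration genes (PEN2 at 1.88, PEN3 at 1.74, PCS1 at 2.74 and EDR1 at 0.47) and for CAM2 (1.05) and CAM3 (0.46). Without flg22, listed genes higher in repeat 2 were MLO7 (log2 difference 1.26), VAMP722 (0.34), SEC1A (0.95), PEN3 (0.62), GSL5 (0.35), EDR1 (0.26), EDR2 (0.35) and PLDDELTA (0.59). Those lower in repeat 2 were SYP111 (-1.74), VAMP721 (-0.32), PCS1 (-0.41), CAM3 (-0.40), CAM6 (-0.35) and CAM7 (-0.42). Over all genes the response was larger in repeat 2 for 8.13% and smaller for 3.13%. Without flg22, 23.1% of all genes were higher and 21.4% lower in repeat 2.

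**Figure D5:**
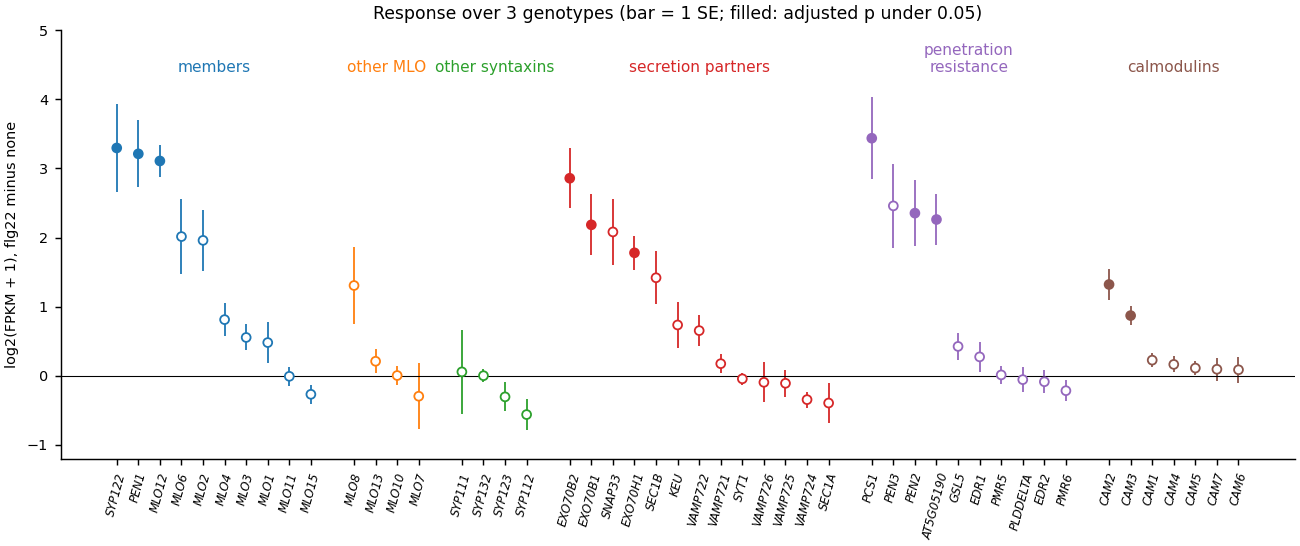
Fitted log2(FPKM + 1) difference between flg22 and none over the 3 genotypes for each kept gene of the members and 5 related lists, with bars of 1 SE and filled points for genes past the limma test. Among these lists, chosen with earlier results of these data known, the members have the highest median, 1.39, and the other syntaxins the lowest, -0.151.

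The genes whose centred log2 levels over the 12 libraries differed least from a member were named by root mean square difference. For MLO12 these were AT1G51820 (0.236), the chitinase gene EP3 (0.246) and AT2G44370 (0.303), and the nearest other member was PEN1 (0.659). For PEN1 they were AT1G50740 (0.137), AT4G36500 (0.143) and AR781 (0.170), all nearer than SYP122 (0.519). For SYP122 they were AT1G32920 (0.168), AT5G63130 (0.228) and AT4G14370 (0.228). Without flg22, AT1G51820 stood at 0.426 to 1.84 FPKM, AT5G63130 at 1.03 to 3.06 and AT4G14370 at 0.546 to 2.09. At such levels the pseudocount understates changes, so the likeness of these genes depends on it. The likeness is a description of these libraries, which share treatment and repeat.

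Positions in TAIR10.1 are chr4:1143888-1147562 for MLO1, chr1:3800500-3804233 for MLO2, chr3:16617398-16621370 for MLO3, chr1:3671756-3676133 for MLO4 and chr1:22708468-22712289 for MLO6. They are chr5:21822323-21826488 for MLO11, chr2:16356041-16359943 for MLO12, chr2:18245357-18248459 for MLO15, chr3:3729305-3731251 for PEN1 and chr3:19425632-19427230 for SYP122. No member shares a word of 50 bases with the transcripts of another gene in the same orientation. Reverse complements were not searched. Genes on the opposite strand overlap MLO2 by 352 bases, MLO3 by 294, MLO6 by 1114 and MLO12 by 57, and without stated strand use their reads cannot be told apart. The partner of MLO12, AT2G39190, stood at 23.6 to 33.7 FPKM without flg22 and 22.5 to 42.1 FPKM with it; the other 3 were not analysed here.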

How the data were processed

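Per the labels, total RNA was extracted with TRIzol and an Illumina TruSeq kit was used for the libraries; the design text gives single-end reads of 100 nt. The headers of the deposited files call their values FPKM. Tools listed in the submitters' processing notes, without roles, are TopHat2 2.0.12, Cuffdiff 2.2.1, bcl2fastq 1.8.4 and cutadapt 1.0, with the build TAIR10. Strand use and the treatment of multiply mapped reads are not given in the sources used here. The authors' table of all libraries and their files per library hold the same FPKM values within 5.0e-05.

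Lines without an identifier (693) and 88 identifiers listed more than once were left out. The 20753 genes that reached 1 FPKM in 2 or more libraries were kept. On log2(FPKM + 1), limma 3.58.1 in R 4.3.3 was fitted with 6 group means, a variance trend and robust empirical Bayes moderation, and 2-sided p values were adjusted over all kept genes by the Benjamini-Hochberg method, with a threshold of 0.05. The log2 scale with a pseudocount of 1 understates changes of low genes. Repeats were compared in a model with genotype, treatment, repeat and the interaction of treatment and repeat. The scripts were tested on simulated data.

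The repeats pair the libraries: per the design text they are independent repeats, and deviations from group means correlated across genes between libraries of the same number at 0.568 to 0.805 in all pairs of groups. A block for the repeat, a block for the repeat within each treatment, other pseudocounts, filters and scalings, and leaving out each library were tried. The members and the gene lists were chosen with earlier results of these data known. All members are named; from each list up to 4 genes with the smallest unadjusted p over the genotypes are named, plus those past the test in a comparison or, over the genotypes, with the block; for likeness, the 3 nearest genes. Names, positions and sequences are from RefSeq's annotation of TAIR10.1, which matched 32722 identifiers.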

Additional observations from a re-analysis of the deposited data

Results flagged for a closer look

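The response to flg22 differed between the repeats of the experiment by the limma test of the difference for 5 members. On the log2 scale, repeat 2 minus repeat 1, it was 2.35 for PEN1, 1.83 for MLO2, 1.62 for SYP122, 1.55 for MLO6 and 1.02 for MLO4, each larger in repeat 2 in all 3 genotypes. Each of the 5 passed in all 12 fits that left out a library. The error of these fits is the spread among genotypes within each repeat and treatment, not between repeats of the experiment. MLO11 was lower with flg22 in every pair of repeat 1 and higher in every pair of repeat 2, a difference of 0.476 (limma adjusted p = 0.113, not past the threshold). These directions were read on the deposited FPKM. The fitted response of MLO11 turned under other scalings in asr3-1 and OX9, as given below. The directions of single pairs were not tested under those scalings.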

How the results depend on the processing

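With the repeat as a block, which uses the pairing of libraries by repeat, 7 members passed over the 3 genotypes in place of 3, and 2 in asr3-1 in place of 1; the count stayed at 1 in WT and 0 in OX9. With a block for the repeat within each treatment 8, 7, 6 and 7 members passed over the genotypes, in WT, in asr3-1 and in OX9. Both fits count the 3 genotype pairs of a repeat as separate observations. Without a filter on low values 0 passed in WT, and with the compared groups alone in the fit 0 passed in WT and 0 in asr3-1. Leaving out each library in turn gave 1 to 5 over the genotypes, 0 to 1 in WT and 0 to 0 in asr3-1; the count was 1 without the untreated repeat 2 library of WT, asr3-1 or OX9, and 5 without the treated repeat 1 library of asr3-1. The cause was not tested. MLO2 passed over the genotypes with a pseudocount of 0.1 (adjusted p = 0.0469).

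Directions turned for members near 0. For MLO11 the log2 response was -0.052 (quantile) and -0.15 (without MT1A) in asr3-1 and -0.027 (quantile) in OX9. With each library left out it ran from -0.088 to 0.075 over the genotypes, -0.24 to 0.10 in WT, -0.15 to 0.16 in asr3-1 and -0.20 to 0.29 in OX9. The range was -0.48 to 0.023 for MLO15 in WT and -0.37 to 0.95 for MLO1 in asr3-1. With 2 pooled libraries a group and no read numbers, small differences between lines cannot be detected.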
